A study of Mus musculus with 15 samples.

Results

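Expression of 10 genes of the visual cycle and of the mature retinal pigment epithelium (RPE) was followed across 15 RNA-Seq libraries of mouse optic tissue grown in a dish. They were taken by symbol from the deposited expression table, which held 23244 entries, and all 10 were found there: Rpe65, Rlbp1, Lrat, Rdh5, Rdh10, Rgr, Best1, Stra6, Mertk and Rrh. At Day 15, the tissue exposed to Wnt/β-catenin stimulation was labelled RPE, and in it Rlbp1, Stra6, Rdh5 and Mertk were 3.68-fold to 11.8-fold higher than in tissue of the same age exposed to Fgf. In the same libraries Rpe65, Rgr, Best1, Lrat and Rrh were each under 1 CPM, Rrh having been above it in Day 10 tissue, and Rdh10 did not differ detectably between the 2 tissues.

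The visual cycle is the relay by which light-bleached retinoid from photoreceptors is turned back into usable chromophore, and most of its steps take place in the RPE. Retinol enters the epithelium through the receptor Stra6, Lrat links it to a fatty acid, Rpe65 isomerizes the ester, and Rdh5, with other retinol dehydrogenases, oxidizes the product, which is carried bound to the protein encoded by Rlbp1. Rgr and Rrh encode opsins of the RPE, Best1 encodes a chloride channel of its basolateral membrane, and Mertk encodes the receptor tyrosine kinase with which the epithelium engulfs shed photoreceptor outer segments.

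The study used SFEBq, a culture in which mouse embryonic stem cells of the EB5 Rx::GFP+/- line reaggregate and form optic epithelium that glows green where the eye-field gene Rx is active. At Day 10, GFP+ epithelium was dissected and either collected or cultured on in retinal maturation medium. Wnt stimulation (+Wnt) was by CHIR99201, an inhibitor of GSK3, at 3 uM for 24 hours and then at 1 uM, and the product was labelled RPE. Fgf stimulation (+Fgf) was by 5 ng/mL human recombinant bFgf together with 10% FBS, and the product was labelled neural retina. Day 10 tissue, labelled Rx::GFP+, formed 1 group and each stimulation gave a Day 12 and a Day 15 group, with 3 biological replicates in each of the 5. All came from 1 stem cell line, no unstimulated tissue of Day 12 or Day 15 is among the libraries analysed here, and bFgf and serum were always given together, so their effects cannot be told apart.

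Each library held between 12556998 and 16175450 reads assigned to genes, so that 1 read was worth 0.0620 to 0.0764 CPM, the count scaled to library size that the authors deposited. A gene was tested if it reached 1 CPM in at least 3 libraries, which 13845 entries and 6 of the 10 genes did (Rlbp1, Stra6, Rdh10, Rdh5, Mertk and Rrh). Rpe65, Lrat, Rgr and Best1 did not, and their levels are given as reads. Log2 differences below are of log2(CPM + 0.3), fitted with limma, with p-values adjusted over all genes by the Benjamini-Hochberg method and a threshold of 0.05. Folds are on the same scale, which understates the change of low genes. Because the tissue was sequenced in bulk, fewer cells of a type and less RNA per cell cannot be told apart.

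The +Wnt tissue was checked against the pigment program first. All 10 melanin synthesis genes tested were higher in Day 15 +Wnt than in Day 15 +Fgf, where 30.6% of all genes tested were higher and 38.0% lower, with a median log2 difference of 5.11 beside -0.05 over all genes tested. Gpr143, a receptor of the melanosome membrane, went from 0.232 ± 0.211 to 27.3 ± 1.65 CPM (SD, n = 3), a log2 difference of 5.78 (SE 0.27, limma adjusted p = 9.68e-12). Slc24a5, an ion exchanger of the pigment granule, went from 3.28 ± 1.25 to 157 ± 18.8 CPM, a log2 difference of 5.52 (SE 0.27, adjusted p = 1.73e-11). Mitf, the leading transcription factor of pigment cells, had a log2 difference of 3.28 (SE 0.07, adjusted p = 2.82e-15). Most of it was a fall under Fgf, since Mitf was at 126 ± 13.0 CPM in Day 10 tissue. It was at 18.6 ± 0.922 CPM in Day 15 +Fgf (log2 difference from Day 10 -2.74) and at 183 ± 12.1 CPM in Day 15 +Wnt (0.53). Mitf is 1 of 8 transcription factor genes listed for the RPE that were tested, of which 4 were higher and 4 lower. Mitf, Otx1, Otx2 and Tfec were higher, and Crx, Pax6, Lhx2 and Sox9 were lower. The paper names Lhx2 as a marker of neural retina epithelium and Crx as a gene of the neural retina. The melanin genes and Mitf went with the RPE label, whereas 5 of the 10 mature RPE and visual cycle genes were near zero in the same libraries.

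**Figure D1:**
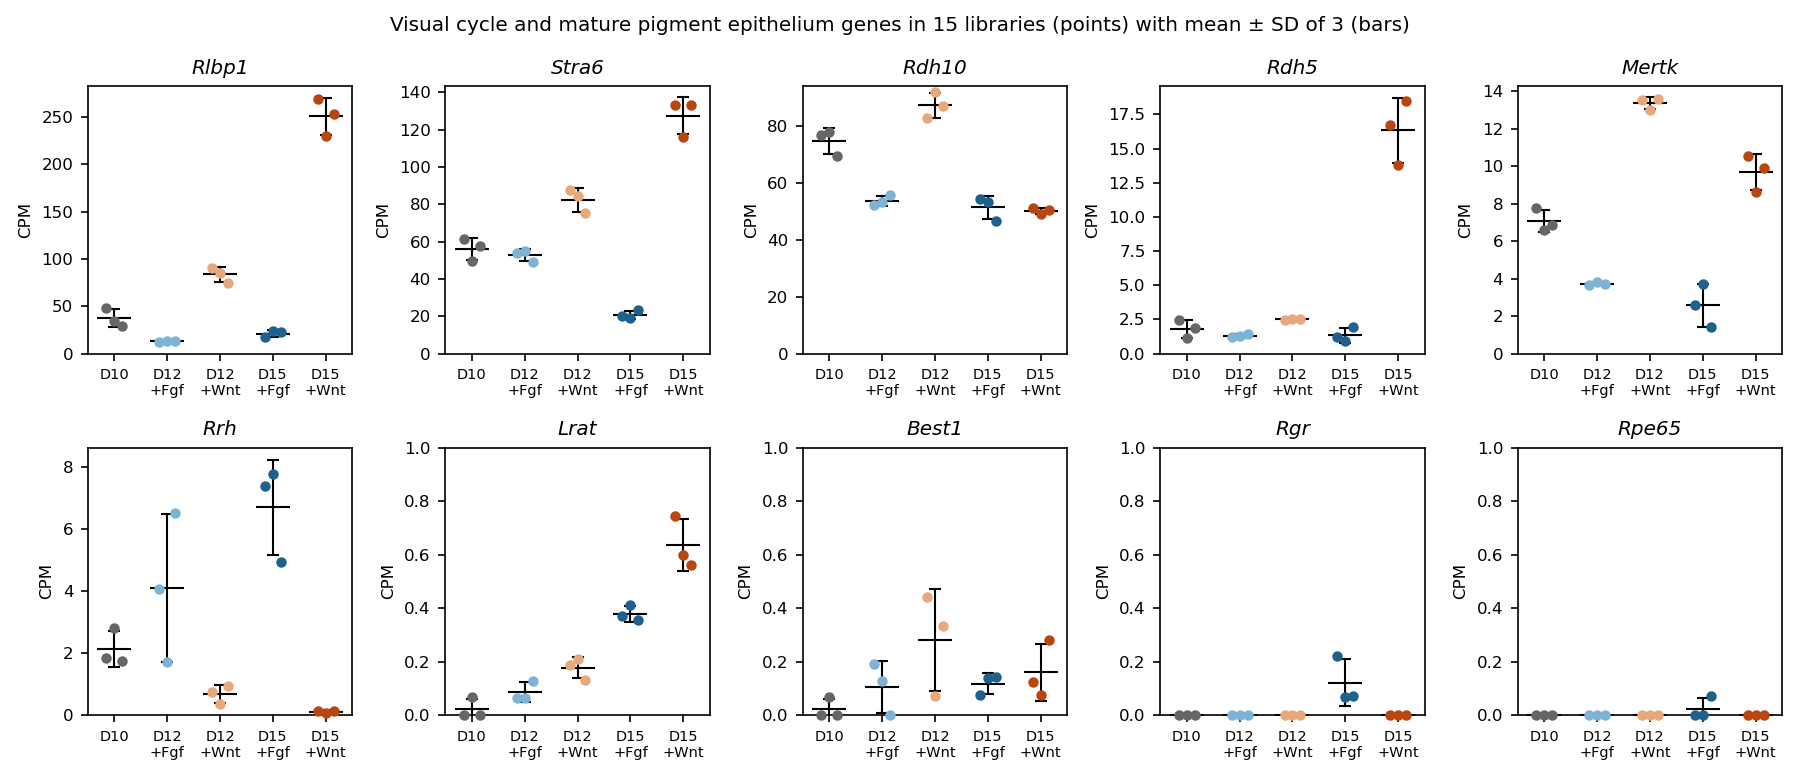
CPM (vertical axes, linear, each panel with its own scale) of the 10 genes in the 15 libraries, grouped by day and stimulation; points are libraries and black bars the mean ± SD of 3. Rlbp1, Stra6 and Rdh5 stand highest in Day 15 +Wnt, Mertk and Rdh10 in Day 12 +Wnt and Rrh in Day 15 +Fgf, whereas Lrat, Best1, Rgr and Rpe65 stay under 1 CPM in every library.

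The promoters of genes at both ends of this range are shown so that the genes whose levels rose can be read beside those that stayed at or near 0 reads. Each is the 250 bases before the RefSeq start site on build GRCm38.p6, 5' to 3' on the gene's strand. Capitals mark E-boxes (CANNTG, read on both strands, the core bound by basic helix-loop-helix factors such as Mitf) and TAATCC or its reverse complement GGATTA (a core bound by Otx and Crx homeodomain factors). Rlbp1 (chr7:79387028-79387277, minus strand) and Rdh5 (chr10:128919298-128919547, minus strand) were among the genes highest in Day 15 +Wnt, and Rpe65 (chr3:159598931-159599180, plus strand), Best1 (chr19:10001634-10001883, minus strand) and Rgr (chr14:37049015-37049264, minus strand) were at or near 0 reads.
Rlbp1: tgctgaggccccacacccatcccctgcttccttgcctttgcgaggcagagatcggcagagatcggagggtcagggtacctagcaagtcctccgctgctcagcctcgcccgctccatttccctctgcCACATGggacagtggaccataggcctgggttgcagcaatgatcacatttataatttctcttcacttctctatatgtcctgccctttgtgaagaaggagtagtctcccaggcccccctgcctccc
Rdh5: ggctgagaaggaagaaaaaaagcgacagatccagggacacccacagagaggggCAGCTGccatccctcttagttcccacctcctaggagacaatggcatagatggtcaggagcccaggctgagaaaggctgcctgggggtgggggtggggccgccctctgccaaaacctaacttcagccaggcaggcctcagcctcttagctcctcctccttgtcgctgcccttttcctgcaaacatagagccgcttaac
Rpe65: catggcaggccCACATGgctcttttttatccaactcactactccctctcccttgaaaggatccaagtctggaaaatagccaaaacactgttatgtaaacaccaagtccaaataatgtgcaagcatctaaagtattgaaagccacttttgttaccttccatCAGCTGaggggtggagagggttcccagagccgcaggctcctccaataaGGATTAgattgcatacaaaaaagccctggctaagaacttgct
Best1: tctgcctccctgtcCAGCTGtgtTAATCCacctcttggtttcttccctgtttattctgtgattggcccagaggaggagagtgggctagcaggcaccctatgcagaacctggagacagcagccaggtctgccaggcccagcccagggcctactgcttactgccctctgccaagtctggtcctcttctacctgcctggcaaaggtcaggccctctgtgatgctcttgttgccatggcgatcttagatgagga
Rgr: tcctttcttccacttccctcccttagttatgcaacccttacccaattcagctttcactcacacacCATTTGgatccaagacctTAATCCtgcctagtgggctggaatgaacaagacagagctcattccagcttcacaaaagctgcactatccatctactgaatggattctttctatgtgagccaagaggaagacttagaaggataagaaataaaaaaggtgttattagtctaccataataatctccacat

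A RefSeq promoter entry was matched for 9 of the 10 genes, all but Rdh10. An E-box lay in the 250 bases of 7 of these 9 genes, beside 66.2% of all 32851 promoters in the table. A gene was counted if any of its start sites matched, which bears on Stra6 with its 4 entries, whereas the shares of all promoters are per entry. CATGTG, which reads as CACATG on the opposite strand, is an E-box that Mitf is known to bind. It lay in 2 of the 9, starting 124 bases before the start of Rlbp1 and 239 bases before that of Rpe65, and in 12.3% of all promoters. TAATCC lay in 3 of the 9 (Rpe65, Rgr and Best1) and in 6.25% of all promoters. The form CACGTG lay in 0 of the 9 and in 6.02% of all promoters, and TATAAA, searched on both strands, in 2 of the 9 (Rlbp1 and Rrh) and in 12.4% of all. So the letters CATGTG were held by a gene at the top of the expression range and by one with 1 read in all libraries. The genes with TAATCC were all near zero, but Lrat and Rrh, also near zero in Day 15 +Wnt, had no match to it. A match is a description of the letters in this window only.

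Rlbp1 lies on chromosome 7 (chr7:79374870-79387048, minus strand; all gene positions are from the GENCODE annotation of GRCm38, also called mm10). Rlbp1 stood at 47.8, 34.6 and 29.6 CPM in the 3 Day 10 libraries. It was at 12.7, 12.9 and 13.7 CPM in Day 12 +Fgf against 90.5, 85.7 and 74.9 CPM in Day 12 +Wnt. At Day 15 it was at 17.0, 24.0 and 22.3 CPM in +Fgf against 269, 230.4 and 253 CPM in +Wnt. The starting tissue thus already expressed Rlbp1, which then fell in 1 tissue and rose in the other, with no overlap between the groups on either day. It fell between Day 10 and Day 12 +Fgf by 1.46 on the log2 scale (SE 0.14, limma adjusted p = 3.25e-07) and rose by 1.18 in Day 12 +Wnt (adjusted p = 2.64e-06). Between Day 12 and Day 15 it rose by 1.58 in +Wnt (adjusted p = 5.03e-08) and by 0.66 in +Fgf (adjusted p = 0.000797). The +Fgf rise was not called when RNA integrity was a covariate (log2 difference 0.48, adjusted p = 0.246). By the paper's values, RNA integrity was lower in every Day 15 +Fgf library than in every Day 12 +Fgf library. RNA integrity and day therefore cannot be told apart in this comparison. At Day 15 the +Wnt tissue held 11.8-fold more than the +Fgf tissue (log2 difference 3.57, SE 0.14, adjusted p = 1.74e-12).

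Stra6 (chr9:58063788-58153996, plus strand) was at 61.3, 49.6 and 57.6 CPM in Day 10 tissue. Day 12 +Fgf libraries held 54.1, 55.2 and 49.1 CPM of Stra6 and Day 12 +Wnt libraries 87.5, 84.4 and 75.1 CPM. By Day 15 the values were 20.2, 18.8 and 23.2 CPM in +Fgf and 133, 116 and 133 CPM in +Wnt. The retinol receptor therefore differed between the tissues in opposite ways over time, being steady and then lower under Fgf while higher at each step under Wnt. In Day 12 +Fgf the difference from Day 10 was -0.09 (SE 0.09, limma adjusted p = 0.440), and between Day 12 and Day 15 Stra6 fell by 1.34 in +Fgf (SE 0.09, adjusted p = 3.77e-09). In +Wnt it rose by 0.55 from Day 10 to Day 12 (adjusted p = 6.65e-05) and by 0.63 from Day 12 to Day 15 (adjusted p = 1.07e-05). The Day 15 tissues differed 6.09-fold (log2 difference 2.61, SE 0.09, adjusted p = 4.00e-13).

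Rdh5 (chr10:128913593-128922888, minus strand), a retinol dehydrogenase of the RPE, was low until Day 12. It was at 2.45, 1.14 and 1.83 CPM in Day 10 tissue. Day 12 libraries held 1.20, 1.27 and 1.41 CPM of it in +Fgf and 2.45, 2.51 and 2.52 CPM in +Wnt. Day 15 libraries held 1.18, 0.893 and 1.91 CPM in +Fgf and 16.7, 13.8 and 18.4 CPM in +Wnt. Rdh5 thus stood apart in Day 15 +Wnt, where the lowest library was far above the highest of any other group. It rose by 2.56 between Day 12 +Wnt and Day 15 +Wnt (SE 0.24, limma adjusted p = 6.96e-08), and the Day 15 tissues differed 10.5-fold (log2 difference 3.39, SE 0.24, adjusted p = 1.80e-09). From Day 10 to Day 12 +Wnt the log2 difference was 0.46 and was not called (adjusted p = 0.108), although it was called without Day 10 replicate 1 (0.67, adjusted p = 0.0274). In the annotation Rdh5 shares 720 exonic bases with Bloc1s1 on the same strand, and reads there could have been given to either gene. Bloc1s1 itself stood at 59.0 ± 2.88 CPM under Wnt stimulation at Day 15, against 60.5 ± 1.62 under Fgf (SD, n = 3), and the part of such reads in the Rdh5 values was not tested.

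Rdh10 (chr1:16105774-16133734, plus strand) oxidizes retinol to retinaldehyde in many embryonic tissues as well as in the RPE. It stood at 77.0, 77.9 and 69.6 CPM in Day 10 tissue. At Day 12 it was at 52.2, 53.3 and 55.7 CPM in +Fgf against 82.8, 91.8 and 87.1 CPM in +Wnt. At Day 15 the +Fgf libraries held 54.3, 53.2 and 46.7 CPM and the +Wnt libraries 51.1, 48.9 and 50.4 CPM, so that the ranges overlapped. Rdh10 was thus the gene of this group that separated the tissues at Day 12 but not detectably at Day 15. At Day 12 it was 1.62-fold higher in +Wnt (log2 difference 0.69, SE 0.06, limma adjusted p = 1.03e-07). It then fell by 0.79 in +Wnt (SE 0.06, adjusted p = 1.15e-08), whereas in +Fgf the difference was -0.07 (adjusted p = 0.391). The Day 15 difference was -0.03 (SE 0.06, adjusted p = 0.657), and its sign was not stable over the alternatives. Against Day 10, it was lower in Day 15 tissue of either kind, by 0.54 in +Fgf (adjusted p = 8.26e-07) and by 0.57 in +Wnt (adjusted p = 2.67e-07).

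The esterifying and isomerizing enzymes were almost absent from the reads. Rpe65 (chr3:159599175-159625321, plus strand) had 1 read in the 221480349 reads of all 15 libraries, and it was in Day 15 +Fgf replicate 3. In the 41144556 reads of Day 15 +Wnt, 0 came from Rpe65, and 0.0685 CPM (3 reads over the group) was taken as its limit. With Rpe65 set at that limit, Rlbp1 was 2396-fold higher per kilobase of exon in Day 15 +Wnt. The 95% exact upper limit for the same 0 reads was 0.0843 CPM, at which the fold would be smaller. Such intervals and limits cover counting error only, since amplified reads are not independent molecules.

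Lrat (chr3:82892579-82903973, minus strand) was near zero by level but not silent. Its reads summed over 3 libraries were 1 in Day 10, 4 in Day 12 +Fgf, 8 in Day 12 +Wnt, 16 in Day 15 +Fgf and 28 in Day 15 +Wnt. Per library, Lrat was at 0.369, 0.412 and 0.353 CPM in Day 15 +Fgf and at 0.744, 0.597 and 0.561 CPM in Day 15 +Wnt. Every Day 15 +Wnt library was above every Day 15 +Fgf library, and every Day 15 library was above every earlier one. The ratio of summed counts between the Day 15 tissues was 1.69, with a 95% exact interval of 0.883 to 3.34 that includes no difference. With no filter on low values, limma called Lrat higher in Day 15 +Wnt than in Day 15 +Fgf (log2 difference 0.46, SE 0.13, adjusted p = 0.00779). That SE is pooled over all 5 groups, some of them at no more than 3 reads a library, and does not model counting error. A Lrat difference between the Day 15 tissues is therefore not established. Without the filter, limma also called Lrat higher in Day 15 than in Day 12 of the same tissue, by 0.82 in +Fgf (adjusted p = 0.000112) and by 0.97 in +Wnt (adjusted p = 1.41e-05). There the ratios of summed counts were 4.46 (95% exact interval 1.44 to 18.3) and 3.63 (1.61 to 9.21).

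The opsins of the RPE were not among the genes that rose with pigment. Rgr (chr14:37034909-37048964, minus strand) had 5 reads in all 15 libraries. All 5 were in Day 15 +Fgf, at 3, 1 and 1 reads a library, and 0 were in the Day 15 +Wnt libraries.

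Rrh (chr3:129804408-129822587, minus strand), which encodes peropsin, was the tested gene that was lower in +Wnt than in +Fgf on both days. It was at 1.84, 2.81 and 1.76 CPM in Day 10 tissue. At Day 12 it was at 4.06, 1.72 and 6.52 CPM in +Fgf and at 0.755, 0.348 and 0.927 CPM in +Wnt. At Day 15 the +Fgf libraries held 7.37, 7.76 and 4.95 CPM and the +Wnt libraries 0.124, 0.0746 and 0.140 CPM. The groups did not overlap on either day, and the Day 15 +Wnt values rest on 2, 1 and 2 reads. At Day 15 the ratio of summed counts was 58.6-fold in favour of +Fgf (95% exact interval 24.8 to 182, counting error only), beside a log2 difference of -4.06 (SE 0.35, limma adjusted p = 2.82e-08) that the pseudocount holds down. Rrh was lower in Day 12 +Wnt than in Day 10 tissue by 1.34 (adjusted p = 0.00371) and lower again at Day 15 by 1.19 (adjusted p = 0.00672). The later fall was not called with a pseudocount of 1 (adjusted p = 0.0702). In +Fgf the difference of 0.71 from Day 10 to Day 12 was not called (adjusted p = 0.0993), but it was 1.19 and called without Day 12 +Fgf replicate 2, the lowest of its group (adjusted p = 0.00399). The difference of 0.81 from Day 12 to Day 15 in +Fgf was not called either (adjusted p = 0.0606). It was called without Day 12 +Fgf replicate 3 (1.21, adjusted p = 0.00707) or Day 15 +Fgf replicate 3 (1.01, adjusted p = 0.0419).

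**Figure D2:**
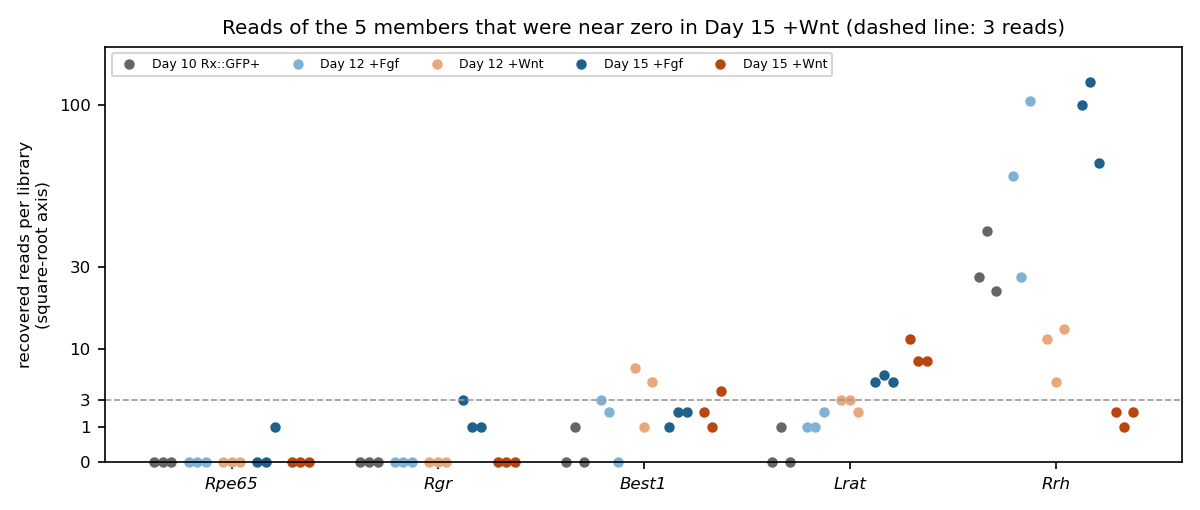
Recovered reads per library (vertical axis, square-root scale) of the 5 genes near zero in Day 15 +Wnt, with a point for each of the 15 libraries coloured by group and a dashed line at 3 reads. Rpe65 and Rgr lie on 0 outside Day 15 +Fgf, Best1 and Lrat hold a few reads in most groups, and Rrh holds 70 to 113 reads in each Day 15 +Fgf library against 1 or 2 in each Day 15 +Wnt library.

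Best1 (chr19:9985174-10001633, minus strand) had 31 reads in all. The sums over 3 libraries were 1 in Day 10, 5 in Day 12 +Fgf, 13 in Day 12 +Wnt, 5 in Day 15 +Fgf and 7 in Day 15 +Wnt. With no filter on low values, limma called Best1 higher in Day 12 +Wnt than in Day 10 tissue (log2 difference 0.80, SE 0.24, adjusted p = 0.0135). No library passed 7 reads, and the Day 15 libraries of the 2 tissues overlapped, at 1 to 2 reads in +Fgf and 1 to 4 in +Wnt. The ratio of summed counts at Day 15 was 1.35 with a 95% exact interval of 0.369 to 5.40, so a difference was not detectable at this depth.

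Mertk (chr2:128698956-128802894, plus strand) was at 7.77, 6.62 and 6.88 CPM in Day 10 tissue. Day 12 libraries held 3.68, 3.82 and 3.71 CPM of Mertk in +Fgf and 13.5, 13.0 and 13.6 CPM in +Wnt. Day 15 libraries held 2.58, 3.71 and 1.41 CPM in +Fgf and 10.5, 8.65 and 9.89 CPM in +Wnt. The phagocytic receptor had already separated the tissues at Day 12, and the groups did not overlap on either day. It was 3.39-fold higher in +Wnt at Day 12 (log2 difference 1.76, SE 0.21, limma adjusted p = 2.47e-06) and 3.68-fold higher at Day 15 (1.88, SE 0.21, adjusted p = 5.60e-07). From Day 10 to Day 12 it rose by 0.89 in +Wnt (adjusted p = 0.00161) and fell by 0.87 in +Fgf (adjusted p = 0.00221). This fall was not called with RNA integrity as a covariate (-0.49, adjusted p = 0.183). RNA integrity was higher in every Day 12 +Fgf library than in every Day 10 library, so the 2 cannot be told apart here either. From Day 12 to Day 15 the difference was -0.46 in +Wnt, where the ranges did not overlap but limma did not call it (adjusted p = 0.0641). It was called by edgeR's count test (-0.41, adjusted p = 0.0407), with a pseudocount of 1 (-0.43, adjusted p = 0.0333), under quantile scaling (-0.85, adjusted p = 0.00203) and without Day 15 +Fgf replicate 2 or 3 (adjusted p = 0.0195 and 0.00662). In +Fgf it was -0.58 (adjusted p = 0.0270), with overlapping ranges, and it was -0.25 without Day 15 +Fgf replicate 3 (adjusted p = 0.180), the lowest library. Leaving out any of the 3 Day 12 +Fgf libraries also ended that call (adjusted p = 0.0523 to 0.0600), as did edgeR's count test (adjusted p = 0.0616).

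Set side by side, 5 of the 6 tested genes differed between the tissues at Day 15, 4 higher and 1 lower in +Wnt, in a comparison in which limma called 68.7% of all genes tested (30.6% higher and 38.0% lower). All 6 differed at Day 12, 5 higher and 1 lower, where 51.5% of all genes were called (25.2% higher and 26.3% lower). The median log2 difference of the 6 genes was 2.24 at Day 15 and 0.75 at Day 12, beside -0.05 and 0.00 over all genes tested (the latter 0.00212 before rounding). Genes low in every group could not enter these counts, so they describe the 6 tested genes and not all 10.

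**Figure D3:**
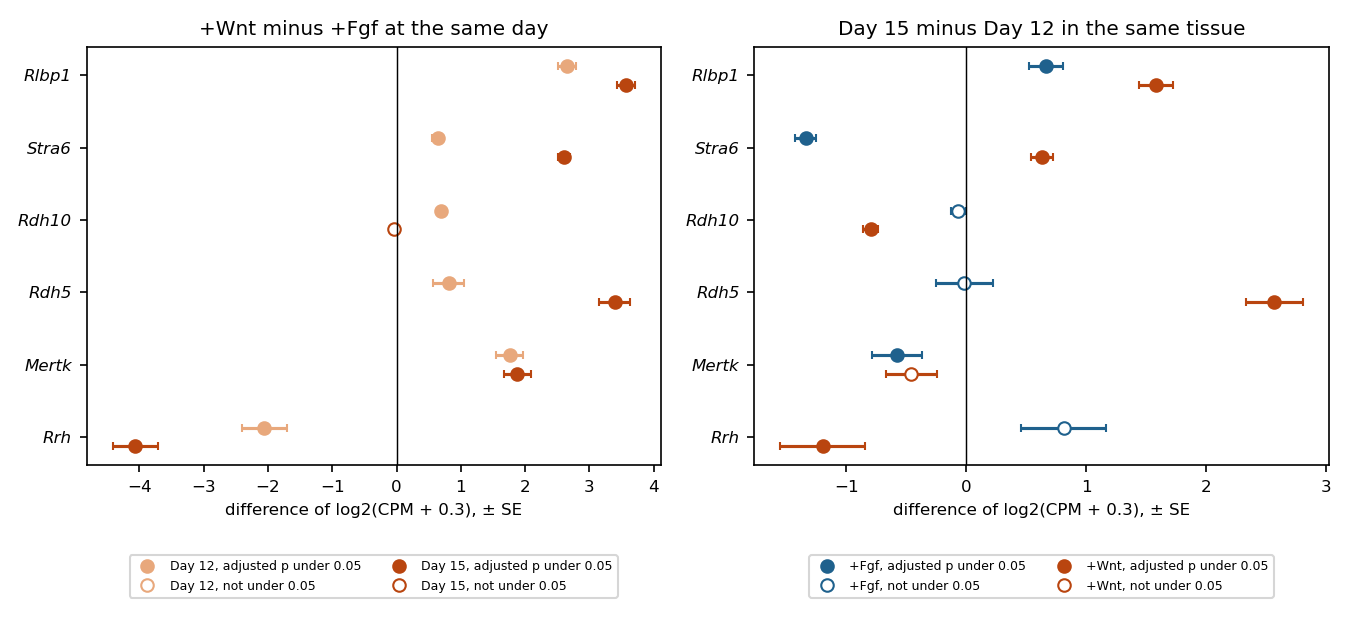
Differences of log2(CPM + 0.3) with SE (horizontal axes) of the 6 tested genes, between the tissues at Day 12 and Day 15 (left) and between Day 12 and Day 15 within each tissue (right); filled points have a limma adjusted p under 0.05. Rlbp1, Rdh5 and Stra6 lie farther right at Day 15 than at Day 12, Rrh lies farther left, Mertk lies at 1.76 and 1.88 and Rdh10 moves to -0.03.

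Within each tissue, the genes moved in mixed directions over time. From Day 10 to Day 12 +Wnt, 4 of the 6 rose and 1 fell (60.2% of all genes called, 30.6% higher and 29.6% lower). From Day 12 to Day 15 +Wnt, 3 rose and 2 fell (68.0% called, 32.5% higher and 35.5% lower). Under Fgf, 3 fell and 0 rose from Day 10 to Day 12 (55.7% called, 27.9% higher and 27.8% lower). From Day 12 to Day 15 +Fgf, 1 rose and 2 fell (57.1% called, 27.2% higher and 29.9% lower). With no filter on low values the last of these comparisons had 5 calls among the 10 genes in place of 3. Lrat and Rgr were added, Rgr on 5 reads against 0. Without the filter there were also 7 calls in place of 5 from Day 10 to Day 12 +Wnt, from Day 10 to Day 15 +Fgf and between the Day 15 tissues. In the last of these Rgr was called lower in +Wnt on the same few reads. Against Day 10, Day 15 +Wnt had 3 genes higher and 2 lower (79.8% called, 39.6% higher and 40.2% lower) and Day 15 +Fgf 1 higher and 4 lower (72.6% called, 36.2% higher and 36.4% lower). The change from Day 12 to Day 15 was itself compared between the tissues, and 3 genes were higher and 2 lower in +Wnt by that test (47.9% called, 20.9% higher and 27.0% lower). Calls were common among all genes in every comparison, so the number of calls by itself sets the 6 genes little apart. The comparisons share libraries with one another and are not independent.

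Levels were then put in order per kilobase of annotated exon. The lengths behind all values per kilobase are of merged GENCODE exons, whereas the reads were counted on UCSC gene models. The counted length can thus differ from gene to gene, and its effect on the order was not tested. In Day 15 +Wnt the order was Rlbp1 at 84.9 ± 6.56 CPM per kilobase, Stra6 at 21.9 ± 1.70, Rdh10 at 12.1 ± 0.264, Rdh5 at 5.81 ± 0.838 and Mertk at 2.24 ± 0.222 (SD, n = 3), and the ranges of neighbours did not overlap. Lrat, at 0.118 ± 0.0182, overlapped with Best1, at 0.0619 ± 0.0417, and both were above Rrh, at 0.0191 ± 0.00579. Rpe65 and Rgr were at 0 reads. In Day 15 +Fgf the first place was held by Rdh10, at 12.4 ± 0.985, before Rlbp1 at 7.14 ± 1.24 and Stra6 at 3.56 ± 0.382. Rrh came next, at 1.13 ± 0.258, and overlapped with Mertk at 0.592 ± 0.265, which overlapped with Rdh5 at 0.472 ± 0.186. In Day 10 tissue Rdh10 also led, at 18.0 ± 1.09, before Rlbp1 at 12.6 ± 3.19 and Stra6 at 9.63 ± 1.02, whose ranges overlapped.

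**Figure D4:**
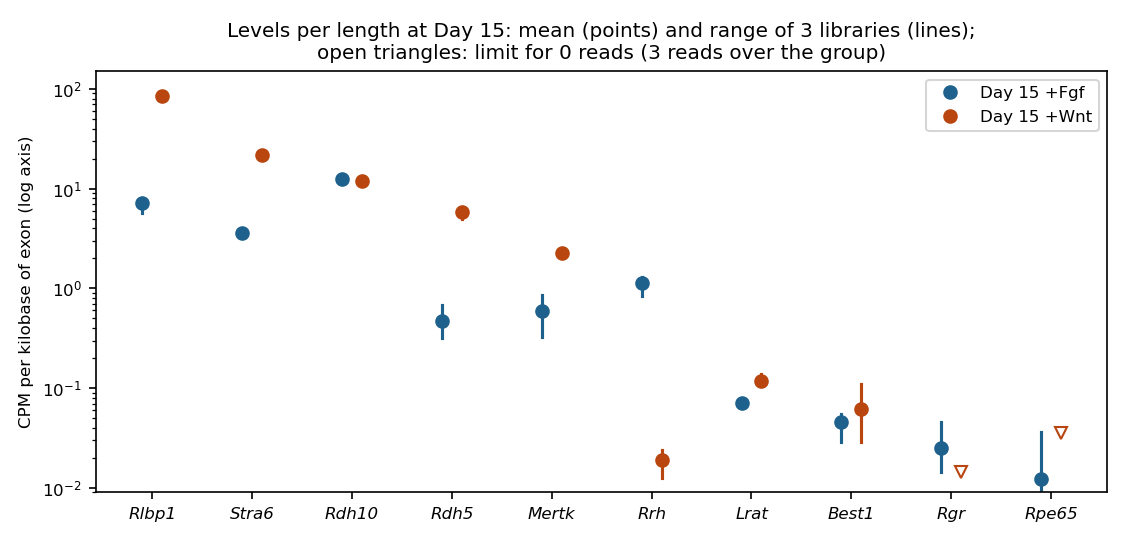
Level per kilobase of annotated exon (vertical axis, CPM per kilobase, log scale) of the 10 genes in Day 15 +Fgf and Day 15 +Wnt. Points are means of 3 libraries and lines the range (a line that ends at the bottom edge reaches 0). Open triangles, for genes at 0 reads, are the limit taken as 3 reads over the group. In +Wnt, Rlbp1 is highest at 84.9, Rrh is at 0.0191, and Rpe65 and Rgr are at 0 reads, with limits of 0.0354 and 0.0143.

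Near zero was taken as under 1 CPM in each of the 3 libraries of a group. By that measure 5 of the 10 genes were near zero in Day 15 +Wnt (Rpe65, Lrat, Rgr, Best1 and Rrh) and 4 in Day 15 +Fgf (Rpe65, Lrat, Rgr and Best1). At most 3 reads in every library were seen for Rpe65, Rgr and Rrh in Day 15 +Wnt and for Rpe65, Rgr and Best1 in Day 15 +Fgf. The same 4 genes were near zero in Day 10 and Day 12 +Fgf tissue, and the same 5 in Day 12 +Wnt, so the list for each tissue held the same names at Day 12 and Day 15.

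Other genes of the pathway were counted from lists. Of 20 other visual cycle and retinoid genes, 15 were tested at Day 15, of which 6 were higher and 3 lower in +Wnt (30.6% and 38.0% of all genes), with a median log2 difference of 0.22. Ttr, the plasma carrier that travels with retinol-binding protein, was at 929 ± 263 CPM in +Wnt and 63.6 ± 58.5 CPM in +Fgf, where its libraries ran from 3.61 to 121 CPM (log2 difference 4.84, SE 0.80, limma adjusted p = 4.83e-05). Bcmo1, the enzyme that cleaves beta-carotene, was at 1.65 ± 0.323 CPM in +Wnt and 0.162 ± 0.173 CPM in +Fgf, and it passed the filter on low values through Day 15 +Wnt alone, so its difference is given without a test although it is 1 of the 6 counted. Rbp3, the retinoid carrier secreted by photoreceptors into the space next to the RPE, was lower by 2.97 (SE 0.21, adjusted p = 1.70e-09). Dhrs3, which reduces retinaldehyde to retinol, was lower by 0.89 (SE 0.30, adjusted p = 0.0146). Rdh8 and Sdr16c5 had 0 reads in every library. Between Day 12 and Day 15 in +Wnt, 9 of the 15 rose and 1 fell (32.5% and 35.5% of all genes), with a median of 0.48. Bcmo1 is 1 of these 9, with the same limit.

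Of 12 phagocytosis genes that act beside Mertk, 11 were tested at Day 15, with 4 higher and 5 lower in +Wnt, shares near the 30.6% and 38.0% of all genes, and a median log2 difference of -0.06. Itgb5, a subunit of the integrin that binds outer segments, was higher by 1.47 (SE 0.12, limma adjusted p = 9.22e-09), and Gas6, a ligand of Mertk, by 1.45 (SE 0.10, adjusted p = 1.95e-09). Tub was lower by 1.24 (SE 0.11, adjusted p = 5.83e-08) and Tulp1 by 0.80 (SE 0.24, adjusted p = 0.00763); both encode proteins reported to bridge outer segments to Mertk.

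Of 14 other mature RPE genes, all 14 were tested, with 11 higher and 1 lower in Day 15 +Wnt (30.6% and 38.0% of all genes) and a median log2 difference of 0.72. Enpp2, which encodes autotaxin, went from 8.56 ± 4.23 to 272 ± 21.5 CPM (log2 difference 5.09, SE 0.30, limma adjusted p = 2.04e-10). Col8a2, a collagen subunit of basement membranes, was higher by 2.54 (SE 0.30, adjusted p = 9.73e-07), whereas Cldn19, a tight junction claudin of the RPE, was lower by 0.67 (SE 0.20, adjusted p = 0.00648). Of 8 transcription factor genes listed for the RPE, some of them also genes of the retina, 4 were higher and 4 lower. These stand beside the same shares of all genes, with a median of 0.39. Otx1 was higher by 2.21 (SE 0.10, adjusted p = 1.09e-11). Crx, an activator of photoreceptor genes, was lower by 5.18 (SE 0.24, adjusted p = 1.17e-11), and Pax6, used in retina and RPE alike, was lower by 1.28 (SE 0.05, adjusted p = 3.57e-12).

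**Figure D5:**
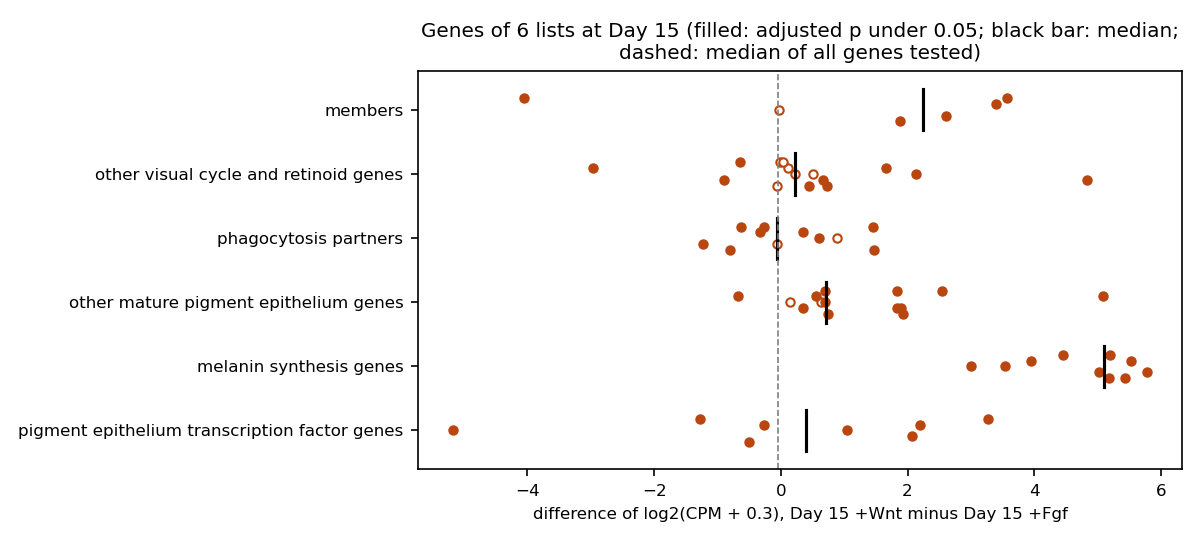
Differences of log2(CPM + 0.3) between Day 15 +Wnt and Day 15 +Fgf (horizontal axis) for the 6 tested visual cycle and RPE genes ("members") and for the tested genes of 5 lists; each point is a gene, filled where the limma adjusted p is under 0.05, black bars are list medians and the dashed line is the median of all genes tested. The melanin genes all lie to the right, with a median of 5.11, and the phagocytosis genes lie on both sides of 0.

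Markers of other cell types also differed between the Day 15 tissues. The summed level of 6 neural retina progenitor genes was 2207 to 2500 CPM in +Fgf and 123 to 126 CPM in +Wnt, led by Sfrp2. Of 8 Muller glia genes, a cell type in which Rlbp1 is also expressed, the sum was 1643 to 1696 CPM in +Fgf and 828 to 974 CPM in +Wnt, 0 of the 8 being limited to 3 reads or fewer in either group. Single genes went in opposite directions. Dkk3, the largest part of the +Fgf sum, was at 1006 ± 61.4 CPM in +Fgf and 41.1 ± 4.00 CPM in +Wnt. Glul was at 530 ± 17.1 and 420 ± 47.2 CPM, and Car14 at 67.5 ± 10.9 and 362 ± 36.6 CPM. Of the 7 tested, 2 were higher and 2 lower in +Wnt (30.6% and 38.0% of all genes), with a median log2 difference of -0.11. Abca8a, 1 of the 2 higher, passed the filter on low values through Day 15 +Wnt alone. Of 8 macrophage genes, which bear on Mertk, the sum was 0.848 to 1.85 CPM in +Fgf and 20.7 to 24.1 CPM in +Wnt, of which Csf1r gave 20.1 ± 1.46, while Ptprc, Aif1, Itgam, Cx3cr1 and Tyrobp had at most 3 reads in each Day 15 +Wnt library. The 8 photoreceptor genes summed to 4.10 to 4.87 CPM in +Fgf and 6.66 to 8.19 CPM in +Wnt. Pde6b gave 5.50 ± 0.747 of the latter, and Opn1mw, Nrl, Gnat1 and Rcvrn had at most 3 reads in each +Wnt library. Of the 3 tested, 1 (Pde6b) was higher and 2 lower in +Wnt (30.6% and 38.0% of all genes). Pde6b passed the filter on low values through Day 15 +Wnt alone, and Sag and Nrl through Day 15 +Fgf alone. Their differences are therefore given without a test, and the counts carry the same limit. Sag was at 2.08 ± 0.0332 CPM in +Fgf and 0.842 ± 0.123 CPM in +Wnt. Nrl was at 1.64 ± 0.449 CPM in +Fgf and 0.0731 ± 0.0746 CPM in +Wnt.

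The 7 choroid plexus genes summed to 69.2 to 215 CPM in Day 15 +Fgf and 1264 to 1765 CPM in Day 15 +Wnt. Ttr, shared with the retinoid list, gave the most in +Wnt. All 6 that were tested were higher in +Wnt (30.6% of all genes), with a median log2 difference of 3.01. Kcne2, 1 of these 6, passed the filter on low values through Day 15 +Wnt alone. Slc4a5 was at 31.6 ± 3.83 CPM in +Fgf and 343 ± 32.7 CPM in +Wnt. Kl was not tested and was at 0.287 ± 0.186 CPM in +Wnt. The 6 neural crest and melanocyte genes summed to 42.0 to 47.6 CPM in +Fgf and 118 to 131 CPM in +Wnt, with Kit and the melanin gene Mlana highest and Sox10 and Foxd3 at no more than 3 reads in each +Wnt library. The part of other cell types in the values of Rlbp1, Stra6, Rdh5, Mertk and Rrh was not tested.

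Finally, the genes whose pattern over the 15 libraries was most like that of each tested gene were listed, with Pearson's r of log2(CPM + 0.3) as the measure, among 13210 candidates. For Rlbp1 these were Tyr, which encodes tyrosinase (r = 0.997), and Fam13a (r = 0.993). For Stra6 they were Pdgfc (r = 0.990) and Ntf3 (r = 0.983), and for Rdh5, Sirpa (r = 0.980) and Wdr72 (r = 0.976). Rdh10 was most like Rxrg, a retinoid X receptor gene (r = 0.958), and B3gat2 (r = 0.954). Mertk was most like Ell3 (r = 0.966) and Snx2 (r = 0.965), and Rrh was most like Cp (r = 0.974) and Tshr (r = 0.967). Among the 6 genes themselves, Rlbp1 and Rdh5 had r = 0.904, whereas Rrh had r = -0.918 with Stra6 and r = -0.907 with Rlbp1. These are descriptions over 15 libraries in 5 groups, which share the group differences given above.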

How the data were processed

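RNA-Seq was done on 15 libraries in 5 groups of 3, assigned from the sample titles. The authors mapped paired Illumina HiSeq reads to mm10 with TopHat2 2.0.8b at default settings, quantified them against UCSC gene models with Cuffdiff (Cufflinks 2.1.1) and normalized them with edgeR 3.2.4. The deposited values are a normalized signal that the authors call CPM: columns sum to 936418 to 1075448, as when library sizes are multiplied by TMM factors. Dividing by the value of 1 read gave whole reads for 100% of values (within 0.05). The strand setting of the counting is not given in the sources used here, although the library kit was stranded, and reads of overlapping genes were not divided again. All value columns mapped to a sample, and the tables per sample held the same values as the joint table (largest relative difference 7.8e-09).

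Differences were fitted with limma 3.58.1 in R 4.3.3 on log2(value + 0.3), as 5 group means over all 15 libraries with a trended moderation, two-sided, with Benjamini-Hochberg adjustment within each of 9 comparisons. The study's methods used edgeR on counts. Because the deposited values are normalized, the quasi-likelihood count test of edgeR 4.0.16 on the recovered reads was run as an alternative. At Day 15 it called 9318 genes between the tissues, beside 9505 by limma. Other steps used Python 3.11.15, pandas 2.3.3, NumPy 2.4.6, SciPy 1.17.1 and matplotlib 3.10.9. Both tests were tried on simulated counts with known changes. Replicates of a group differed by more than sampling noise (chi-square per degree of freedom 2.68 to 8.59) and less than libraries of different groups (34.6 to 183), so that none was counted as a duplicate.

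Alternatives covered the pseudocount (0.05 or 1), the filter (none, or 10 CPM in 3 libraries), quantile and median-of-ratios scaling, RNA integrity as a covariate, the replicate number as a block, the count test, each library left out, and thresholds for near zero of 0.5 and 2 CPM. RNA integrity differed between groups and was lowest in Day 15 +Fgf, so a call lost with this covariate cannot be assigned to RNA quality. From each gene list, the genes named are the 2 largest called increases and the 2 largest called decreases at Day 15, and from each marker list the highest genes and those limited to 3 reads; the genes most alike are the 2 with the highest r. Bco1 and Stra6l were matched to Bcmo1 and 1300002K09Rik through RefSeq synonyms. The 10 genes and the lists were chosen with earlier results of these data known. Exon positions and lengths are from GENCODE vM21, and promoters from RefSeq.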

Additional observations from a re-analysis of the deposited data

Results flagged for a closer look

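For 5 of the 6 tested genes, the change from Day 12 to Day 15 differed between the +Wnt and +Fgf tissues by limma's test of the difference of the 2 changes, a comparison in which 47.9% of all genes tested were called. The change in +Wnt was above that in +Fgf by 0.92 on the log2 scale for Rlbp1 (SE 0.20, adjusted p = 0.00129), by 2.58 for Rdh5 (SE 0.34, adjusted p = 1.00e-05) and by 1.97 for Stra6 (SE 0.13, adjusted p = 6.49e-09). It was below that in +Fgf for Rdh10, with a difference of -0.73 (SE 0.09, adjusted p = 5.43e-06), and for Rrh, with a difference of -2.01 (SE 0.50, adjusted p = 0.00347). With RNA integrity as a covariate the Rrh difference was -1.85 and was not called (adjusted p = 0.113). For Mertk the difference was 0.12 (SE 0.30, adjusted p = 0.760).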

How the results depend on the processing

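Of the 54 differences of the 6 tested genes (6 genes in 9 comparisons), 42 were called. Under 24 alternatives for each (23 for Rrh, which could not be fitted with the filter of 10 CPM), 0 of the 42 turned their sign, 37 kept the call in all, and 5 lost it in at least 1: Rlbp1 and Mertk between Day 12 and Day 15 in +Fgf, Mertk from Day 10 to Day 12 +Fgf, Rrh between Day 12 and Day 15 in +Wnt, and the Rrh difference between the 2 changes; the causes were not tested. Of the 12 not called, 7 were called in at least 1 alternative. The number of genes called was 5 in place of 3 between Day 12 and Day 15 in +Fgf with no filter, since Lrat and Rgr then entered, Rgr with at most 3 reads a library; the other counts stayed within 1.5 times. The signs that turned belonged to differences that were not called. Rdh5 between Day 12 and Day 15 in +Fgf was -0.02, but 0.24 with RNA integrity as a covariate, 0.055 by edgeR, and -0.26 to 0.18 with 1 library left out. Rdh10 was -0.11 to 0.00095 there with 1 library left out. Rdh10 between the Day 15 tissues was 0.033 under quantile scaling, 0.18 with RNA integrity, 0.016 by edgeR, and -0.10 to 0.0076 with 1 library left out. Mertk between Day 15 +Wnt and Day 10 was -0.19 under quantile scaling, which moved the median gene by -0.10; from 0.43, not called, it was called under 5 others (0.40 with a pseudocount of 1, 0.75 with RNA integrity, 0.51 by edgeR, and 0.43 without Day 15 +Fgf replicate 2 or 3; adjusted p = 0.0072 to 0.0387). The difference of the 2 Mertk changes was -0.0034 under quantile scaling, and -0.21 to 0.40 with 1 library left out. Replicate numbers did not pair the samples (correlations of deviations from the group means -0.25 to 0.24 over 30 same-numbered pairs, 7 of them over 0.1), and the replicate block changed 0 of the 54 calls; with it Rlbp1 between the Day 15 tissues kept a difference of 3.57. At a threshold of 0.5 CPM, 4 genes were near zero in each Day 15 tissue (Lrat no longer in +Wnt), and at 2 CPM, 5 were (Rdh5 added in +Fgf). Depth limits Rpe65, Rgr, Best1 and Lrat, at 1 to 57 reads in all libraries, to counting intervals. With 3 libraries a group, no outlying library could be judged.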
